A study of Mus musculus with 4 samples.

Results

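Sugar and monocarboxylate transporter genes of the Slc2, Slc5 and Slc16 families were compared between large-intestinal and small-intestinal stem cells of the mouse. The genes were chosen by symbol alone: all genes named Slc2a, Slc5a or Slc16a with a number in GENCODE vM21, without Slc16a10. The rule found 38 genes among the 55487 listed in the files, 12 in Slc2, 13 in Slc5 and 13 in Slc16. Large-intestinal stem cells (LISC, 2 libraries) were sorted as Lgr5-EGFP-positive from crypts taken between cecum and rectum, so that cecum and colon were not kept apart. Small-intestinal stem cells (SISC, 2 libraries) were sorted as Lgr5-EGFP-positive and CD24-negative from crypts of the small intestine near the pylorus and near the cecum, and CD24 is not named in the gate of LISC. All mice were untreated, 6 to 12 weeks old, and carried Lgr5-EGFP-IRES-creERT2, an allele that places a green fluorescent reporter and a tamoxifen-inducible recombinase under the stem cell gene Lgr5. The labels do not say whether the replicates came from separate or pooled animals, so that the p-values below rest on the spread among 4 libraries, which may be technical.

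The Slc2 genes encode the GLUT proteins, which let hexoses and related polyols pass down their gradient, apart from a proton-coupled inositol carrier. The Slc5 genes encode sodium-coupled carriers, among them the brush border glucose transporter SGLT1 and the carriers of inositol, lactate and short-chain fatty acids, vitamins, iodide and choline. The Slc16 genes encode the MCT proteins, of which a few carry lactate, pyruvate, butyrate and ketone bodies with a proton, while others carry carnitine or creatine, or have no settled substrate. In the small intestine dietary sugar is taken up by SGLT1 and the fructose transporter GLUT5 and leaves the cell by GLUT2, and in the large intestine butyrate made by bacteria is a main fuel of the epithelium.

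Expected counts summed to 12795434 and 24142212 in LISC replicates 1 and 2, and to 16490485 and 27227715 in SISC replicates 1 and 2. Nuclear rRNA took 28.5% and 24.1% of counts in the replicate 1 libraries of LISC and SISC, but 0.0997% and 0.0917% in the replicate 2 libraries, so that differences within each replicate number, which have no test of their own, are given beside the fitted ones. Values are counts scaled by TMM to library size (CPM) unless TPM, a measure that takes gene length into account, is named. The summed level of 9 colonocyte markers was 497 and 1735 CPM in LISC, against 112 and 49.7 CPM in SISC, and 12 enterocyte markers summed to 179 and 263 CPM in LISC, against 747 and 526 CPM in SISC. Paneth cell markers (6 genes) summed to 53.6 and 24.99 CPM in LISC, against 8572 and 1283 CPM in SISC, and goblet cell markers (7 genes) to 3325 and 5655 CPM in LISC, against 2051 and 449 CPM in SISC. Enteroendocrine markers (9 genes) summed to 81.6 and 115 CPM in LISC, against 187 and 35.7 CPM in SISC, and tuft cell markers (5 genes) to 55.4 and 85.9 CPM in LISC, against 15.4 and 3.56 CPM in SISC. The enteroendocrine sum holds genes called in opposite directions. Gip was lower in LISC (edgeR adjusted p = 0.0403) and Sct was higher in LISC (edgeR adjusted p = 0.0447). Stem cell markers (9 genes) summed to 1067 and 823 CPM in LISC, against 9229 and 14140 CPM in SISC, where Olfm4 made up most of the sum (91.5 and 108 CPM in LISC, against 7765 and 12470 CPM in SISC), while Lgr5 itself was read at 147 and 89.8 CPM in LISC, against 113 and 173 CPM in SISC, with overlapping groups. Of the other stem cell markers, Smoc2, Axin2 and Cdca7 had lower values in both LISC libraries than in either SISC library, without passing edgeR's test (log2 −1.40, −1.41 and −1.34, edgeR adjusted p = 0.172, 0.119 and 0.15, DESeq2 adjusted p = 0.00543, 0.0004 and 0.00117). The groups of Ascl2, Rnf43, Znrf3 and Sox9 overlapped (log2 −0.36, −0.75, −0.15 and −0.06). Over all genes tested, groups did not overlap in 40.3%, and DESeq2 called 8.35% in either direction. Markers of red cells (4 genes) were at most 18.6 CPM. Markers of immune cells (7 genes) reached at most 5.98 CPM and those of stroma and endothelium (7 genes) at most 1.34 CPM in any library. The part of these marker differences in the results below was not tested, and in such bulk samples fewer cells of a type and less RNA per cell cannot be told apart.

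Of the 38 transporter genes, 3 rose in LISC relative to SISC and none fell at an adjusted p below 0.05 in edgeR's quasi-likelihood test. Slc5a8, the sodium-coupled carrier of short-chain fatty acids and lactate, was 22.9-fold higher. Slc16a9, a carnitine carrier by work on the human protein, was 38.6-fold higher, and Slc2a13, the proton-coupled inositol carrier, was 4.26-fold higher. Neither of the main glucose carriers of the epithelium, Slc5a1 and Slc2a1, passed the test (log2 −0.01 ± 0.30 and 0.51 ± 0.26). In all, 23 of the 38 genes passed the filter on low counts and were tested, 7 had no count in any library and the other 8 had too few counts. Among all 14165 genes tested the share called was 2.20%, with 1.45% higher and 0.741% lower in LISC, against 3 of 23, or 13.0%, among the transporter genes. At an unadjusted p below 0.05, 7 transporter genes were higher and 2 lower in LISC, where the shares over all genes tested were 8.73% and 4.67%. DESeq2 called 5 higher and 1 lower, against 8.35% of all genes in either direction. Slc2a2, Slc2a6 and Slc16a9 passed the filter through the group where they were high, so that these counts are given as a description and support nothing. The 23 genes had a median log2 difference of 0.51, the same with genes at 0 in a group held at their bound, and 0.60 and 0.41 within replicates 1 and 2, beside −0.02 over all genes tested.

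**Figure D1:**
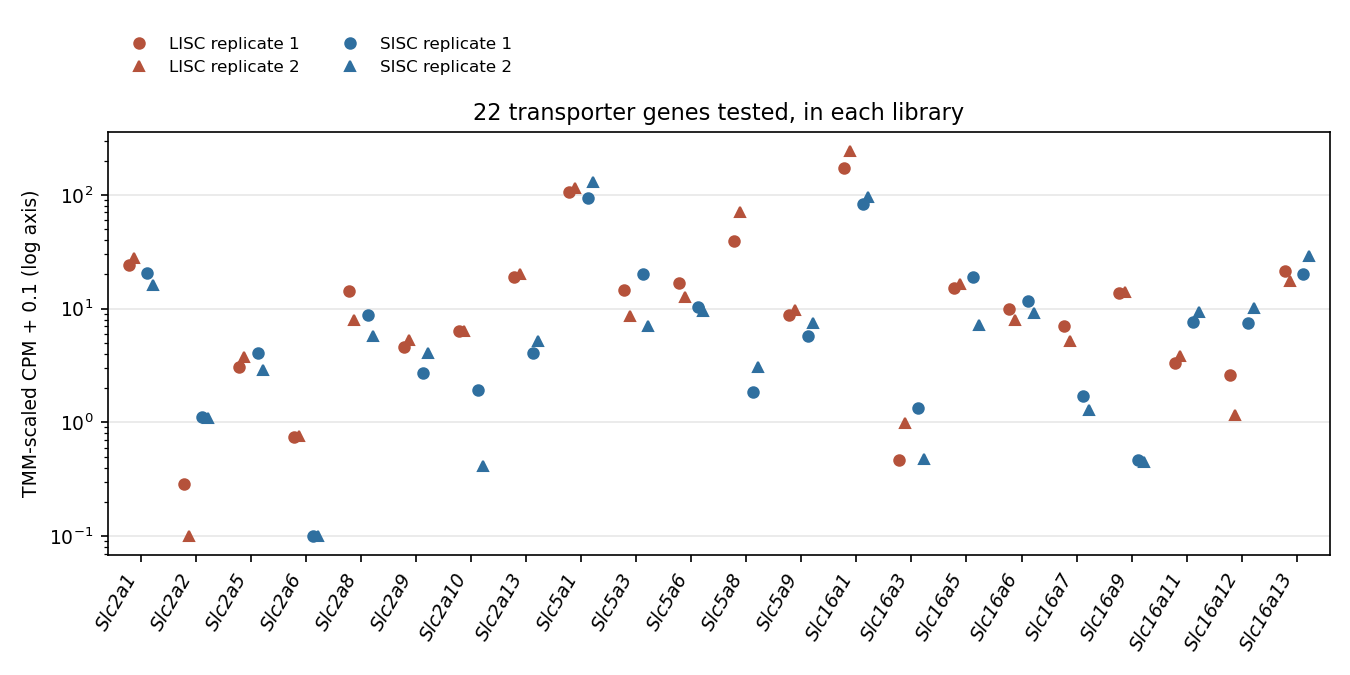
TMM-scaled CPM plus 0.1, on a log axis, of 22 of the 23 transporter genes that passed the filter, in the 2 LISC libraries (red, left of each pair) and the 2 SISC libraries (blue); a point at the bottom, at 0.1, had 0 counts. Slc16a1 and Slc5a1 stand highest, and the groups lie farthest apart in Slc5a8 and Slc16a9.

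The promoters of the 3 genes that rose, and of Slc16a12 and Slc2a2 with the largest differences in the opposite direction, are shown so that their letters can be read beside the levels; this choice of 5 was made with their values known. The windows run from 250 bases before to 50 bases after the RefSeq start site (GRCm38.p6), 5′ to 3′ on the gene's strand. Capitals mark every match to 8 letter strings looked for on both strands: the GC box GGGCGG, the E-box CACGTG, the TATA box TATAAA, a CDX string TTTATG, an HNF1 string GTTAAT, an HNF4 string CAAAGTCCA, a GATA string AGATAA and a TCF/LEF string CTTTGAT.
Slc5a8, chr10:88885742-88886041, plus strand: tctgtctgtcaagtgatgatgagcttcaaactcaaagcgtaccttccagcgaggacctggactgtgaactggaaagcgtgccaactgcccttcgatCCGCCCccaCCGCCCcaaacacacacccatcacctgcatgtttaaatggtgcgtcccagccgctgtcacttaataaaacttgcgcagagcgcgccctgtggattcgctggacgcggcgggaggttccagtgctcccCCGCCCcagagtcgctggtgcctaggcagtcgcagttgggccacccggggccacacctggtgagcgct
Slc16a9, chr10:70245026-70245325, plus strand: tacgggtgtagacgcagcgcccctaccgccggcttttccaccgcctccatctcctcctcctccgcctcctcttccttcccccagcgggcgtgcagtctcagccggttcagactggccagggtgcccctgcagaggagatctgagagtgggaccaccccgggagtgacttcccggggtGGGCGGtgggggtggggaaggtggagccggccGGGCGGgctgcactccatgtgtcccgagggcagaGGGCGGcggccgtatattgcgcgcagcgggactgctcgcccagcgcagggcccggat
Slc2a13, chr15:91573212-91573511, minus strand: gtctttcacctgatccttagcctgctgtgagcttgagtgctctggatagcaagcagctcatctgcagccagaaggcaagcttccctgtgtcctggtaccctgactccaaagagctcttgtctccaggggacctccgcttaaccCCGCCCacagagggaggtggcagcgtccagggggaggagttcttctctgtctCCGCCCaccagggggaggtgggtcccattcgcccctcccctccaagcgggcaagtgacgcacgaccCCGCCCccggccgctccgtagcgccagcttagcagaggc
Slc16a12, chr19:34747279-34747578, minus strand: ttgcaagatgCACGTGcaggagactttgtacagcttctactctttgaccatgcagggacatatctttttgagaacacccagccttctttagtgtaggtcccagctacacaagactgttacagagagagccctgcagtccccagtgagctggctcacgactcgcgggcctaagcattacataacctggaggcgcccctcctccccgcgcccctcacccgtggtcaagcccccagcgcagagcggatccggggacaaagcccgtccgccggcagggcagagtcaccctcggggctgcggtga
Slc2a2, chr3:28697653-28697952, plus strand: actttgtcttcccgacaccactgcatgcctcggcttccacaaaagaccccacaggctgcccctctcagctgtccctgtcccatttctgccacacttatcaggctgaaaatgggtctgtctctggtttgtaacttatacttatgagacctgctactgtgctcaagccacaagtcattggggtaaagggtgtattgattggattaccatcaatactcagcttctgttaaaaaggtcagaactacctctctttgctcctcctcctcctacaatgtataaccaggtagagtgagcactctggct
The windows of Slc5a8, Slc16a9 and Slc2a13 each held 3 GC boxes, and those of Slc16a12 and Slc2a2 held 0. Among the other member windows the number ran from 0, as in Slc16a11, to 6 in a window of Slc5a6. Slc2a5 held 3 and Slc5a3 held 4, and neither gene passed the test. Over all 32851 windows of this length, 35.7% held a GC box, as did 13 of the 30 windows of the 28 transporter genes matched. Slc16a12 held the 1 E-box marked, a string found in 7.15% of all windows. The GC content was 60.7%, 70.7% and 63.7% in Slc5a8, Slc16a9 and Slc2a13, and 60% and 48.0% in Slc16a12 and Slc2a2, beside a median of 52.7% over all windows. These matches describe letters and are not evidence of binding. Of the gut factor strings, TTTATG was found in 3 of 30 member windows (11.9% of all windows) and GTTAAT in 2 (7.10%). AGATAA was found in 1 (11.2%), and CAAAGTCCA and CTTTGAT in 0 (0.475% and 3.73%). Counts this small in 30 windows were not tested against the shares over all windows.

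Among the carriers of short-chain fatty acids, lactate and ketone bodies, Slc5a8 (ENSMUSG00000020062; chromosome 10, 88885992 to 88929515, GRCm38) had 421 and 2038 counts in LISC, against 24 and 94 counts in SISC. This was 39.0 and 70.0 CPM in LISC and 1.75 and 2.94 CPM in SISC, so that both LISC libraries stood far above both SISC libraries. The log2 difference was 4.51 ± 0.47 (SE; edgeR adjusted p = 0.0267), and 4.48 and 4.58 within replicates 1 and 2. Its call held in each of the 12 alternative analyses, with log2 differences of 2.83 to 4.93. The means were 54.5 ± 22.0 CPM in LISC and 2.34 ± 0.842 CPM in SISC (SD, n = 2 each). The summed colonocyte markers were also higher in LISC (2 of 8 tested rose), and were higher in LISC replicate 2 than in LISC replicate 1, and their part in the result was not tested. Slc5a12, the low-affinity relative of Slc5a8, had 0 counts in all 4 libraries.

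Slc16a1 (MCT1), the proton-coupled carrier of lactate and butyrate on the basolateral side of the epithelium, was the most abundant of the MCT genes. It was read at 172 and 241 CPM in LISC, against 83.0 and 96.1 CPM in SISC, and these groups did not overlap. Its log2 difference of 1.204 ± 0.32 did not pass edgeR's test (adjusted p = 0.177, unadjusted p = 0.0138), and was 1.05 and 1.32 within replicates 1 and 2. DESeq2 called it (adjusted p = 0.00971). Slc16a7 (MCT2), a carrier with high affinity for pyruvate and lactate, was read at 6.86 and 5.12 CPM in LISC, against 1.60 and 1.19 CPM in SISC. Here too every LISC library was above every SISC library, by a log2 difference of 2.10 ± 0.49 (edgeR adjusted p = 0.135, DESeq2 adjusted p = 0.0118). Slc16a3 (MCT4), the lactate exporter of glycolytic cells, had only 4 and 26 counts in LISC, against 17 and 12 counts in SISC. Its groups overlapped (log2 −0.27 ± 0.97, edgeR adjusted p = 0.999), with opposite signs within replicates 1 and 2 (−1.74 and 1.25). Slc16a8 (MCT3), known from the retinal pigment epithelium, had at most 3 counts in a library. Of the membrane partners of these carriers, Bsg (basigin), the chaperone of MCT1 and MCT4, stood at 333 and 823 TPM in LISC, against 320 and 617 TPM in SISC (log2 0.30, edgeR adjusted p = 0.941), and Emb (embigin), the partner of MCT2, had 0 and 8 counts in LISC, against 0 and 1 counts in SISC.

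The other MCT genes went in both directions. Slc16a9 (ENSMUSG00000037762; chromosome 10, 70245100 to 70285968) had 147 and 406 counts in LISC, against 5 and 11 counts in SISC. In CPM this was 13.6 and 14.0 in LISC, against 0.364 and 0.344 in SISC, with replicates of a group close together and the groups far apart. The means were 13.8 ± 0.236 CPM in LISC and 0.354 ± 0.0143 CPM in SISC (SD, n = 2 each). The log2 difference was 5.27 ± 0.40 (edgeR adjusted p = 0.0173), with 5.23 and 5.34 within replicates 1 and 2, and the call held in each of the 12 alternatives. The higher colonocyte and goblet cell marker sums of LISC stand beside this difference as well, and their part in it was not tested. Of the 7 goblet cell markers tested, 0 passed edgeR's test, and the groups of Tff3, Clca1 and Zg16 overlapped. Both genes that overlap it on the opposite strand, Gm7097 and Gm9877, had 0 counts in each library. Slc16a12, a creatine carrier by work on the human protein, had the opposite order: 2.50 and 1.07 CPM in LISC, against 7.42 and 9.996 CPM in SISC. Its LISC libraries were both below its SISC libraries, but the log2 difference of −2.32 ± 0.57 did not pass edgeR's test (adjusted p = 0.15, unadjusted p = 0.0101). It was −1.57 and −3.23 within replicates 1 and 2, and DESeq2 called it (adjusted p = 0.00765).

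Slc16a11, a gene linked to type 2 diabetes in people, was read at 3.24 and 3.71 CPM in LISC, against 7.49 and 9.25 CPM in SISC. The groups did not overlap (log2 −1.26 ± 0.37, edgeR adjusted p = 0.216, unadjusted p = 0.0196). Slc16a13, a lactate carrier gene, lies 0.37 kb from Slc16a11 on chromosome 11, on the opposite strand with the 3′ ends facing, and was read at 21.3 and 17.2 CPM in LISC, against 20.1 and 28.8 CPM in SISC. Its groups overlapped (log2 −0.35 ± 0.30, edgeR adjusted p = 0.835). The contrast between these neighbours was not tested. Slc16a5 (MCT6) was read at 14.9 and 16.3 CPM in LISC, against 18.9 and 7.03 CPM in SISC, with both LISC values inside the range of the SISC values (log2 0.28 ± 0.51, edgeR adjusted p = 0.973). Slc16a6 (MCT7), a ketone body exporter by work in zebrafish, was read at 9.82 and 7.77 CPM in LISC, against 11.6 and 9.03 CPM in SISC, again overlapping. Slc16a4 and Slc16a14 had 0 counts in all libraries.

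**Figure D2:**
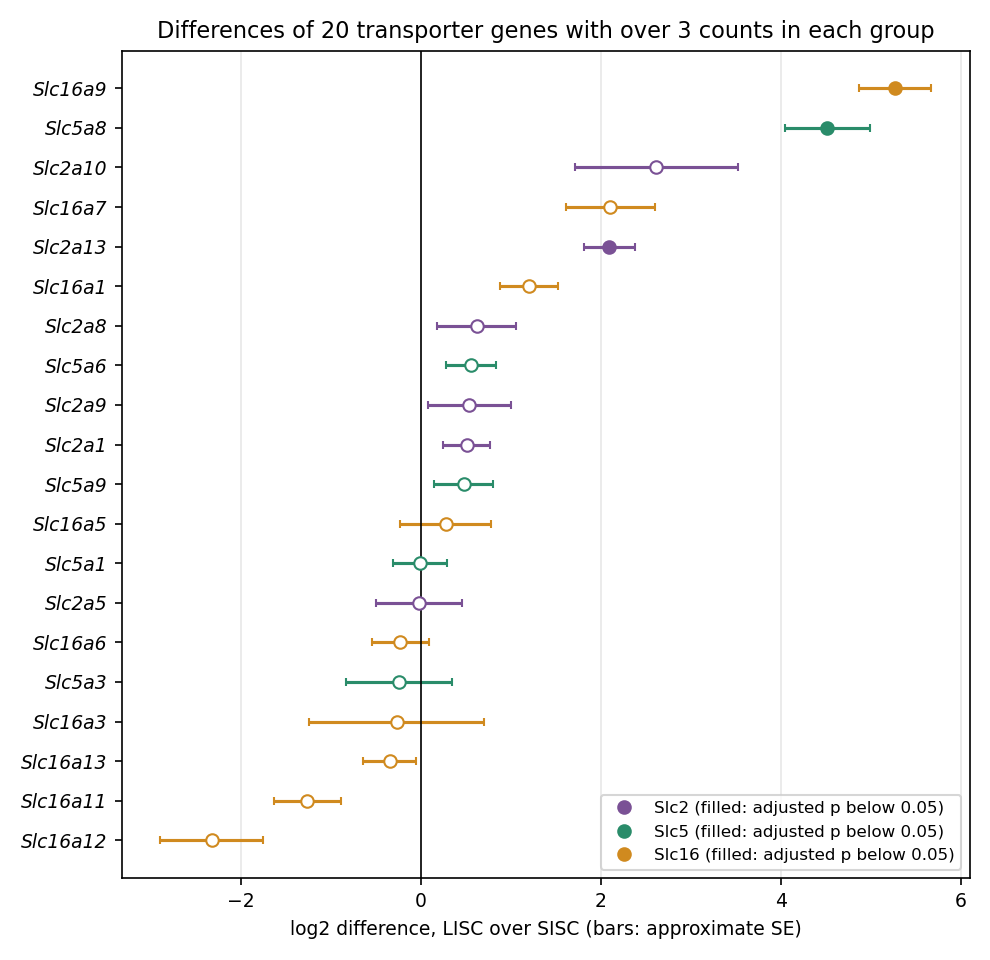
Log2 difference of LISC over SISC (horizontal axis, bars are approximate SE) for 20 tested transporter genes, sorted by size and coloured by family; Slc2a2 and Slc2a6, with 0 to 2 counts in a group, and 1 gene not reported by name are left out. Filled points passed edgeR's test: Slc16a9 at 5.27, Slc5a8 at 4.51 and Slc2a13 at 2.09.

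Slc5a1 (SGLT1), the sodium-coupled glucose and galactose carrier of the brush border, was among the 2 highest of the 38 genes by TPM in every library. It was read at 106 and 116 CPM in LISC, against 93.3 and 130.0 CPM in SISC. The LISC libraries lay between the SISC libraries (log2 −0.01 ± 0.30, edgeR adjusted p = 1), and the differences within replicates 1 and 2 were 0.18 and −0.17. The related sodium-glucose carrier genes were low or absent: Slc5a4b had at most 12 counts in a library, Slc5a10 at most 5, and Slc5a2 (SGLT2, the kidney form) and Slc5a4a had none. Slc5a9 (SGLT4), a mannose and glucose carrier, was read at 8.62 and 9.59 CPM in LISC, against 5.67 and 7.37 CPM in SISC, with no overlap and no call (log2 0.48 ± 0.33, edgeR adjusted p = 0.738).

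Slc2a1 (GLUT1), the widespread basal glucose carrier, was read at 24.0 and 27.6 CPM in LISC, against 20.3 and 15.99 CPM in SISC. LISC was higher in both pairs (0.24 and 0.79 within replicates 1 and 2), without passing the test (log2 0.51 ± 0.26, edgeR adjusted p = 0.557). Slc2a2 (GLUT2), the basolateral sugar exit of absorptive cells, had 2 and 0 counts in LISC, against 14 and 32 counts in SISC. LISC was thus at the limit of detection, and by pooled counts Slc2a2 was 20.1-fold lower in LISC (exact 95% interval 5.24 to 171, counting error only; edgeR adjusted p = 0.389). The fitted log2 difference, which at so few counts depends on the prior count and is no bound, was −3.82 ± 1.52, and it was −7.66 without LISC replicate 1 and −2.39 without LISC replicate 2. The summed enterocyte markers were also lower in both LISC libraries (4 of 12 tested fell), and their part in this difference was not tested. Slc2a5 (GLUT5), the fructose carrier, was read at 2.96 and 3.64 CPM in LISC, against 3.93 and 2.81 CPM in SISC. Its groups overlapped (log2 −0.02 ± 0.48, edgeR adjusted p = 1), and its neighbour at 4.80 kb on chromosome 4, Slc2a7, had 0 counts in every library.

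Of the other GLUT genes, Slc2a10 (GLUT10), which is mutated in human arterial tortuosity, was read at 6.30 and 6.29 CPM in LISC, against 1.82 and 0.312 CPM in SISC. The LISC libraries agreed closely and the SISC libraries differed from each other, so that the difference was 1.79 within replicate 1 and 4.33 within replicate 2. The fitted log2 difference of 2.61 ± 0.91 did not pass (edgeR adjusted p = 0.302, unadjusted p = 0.0348), and it passed without SISC replicate 1 (log2 4.30, edgeR adjusted p = 0.0377). Slc2a6 (GLUT6), a carrier of intracellular membranes, had 7 and 19 counts in LISC and 0 counts in both SISC libraries. Against a floor of 3 counts per library the LISC level was at least 4.17-fold higher, without passing (edgeR adjusted p = 0.158). Slc2a8 (GLUT8), another intracellular hexose carrier, was read at 14.2 and 7.84 CPM in LISC, against 8.66 and 5.65 CPM in SISC, with overlapping groups. Slc2a9 (GLUT9), the urate carrier, was read at 4.45 and 5.16 CPM in LISC, against 2.62 and 3.97 CPM in SISC, which did not pass (log2 0.54 ± 0.46, edgeR adjusted p = 0.834). Slc2a3 (GLUT3, known from neurons), Slc2a4 (GLUT4, the insulin-responsive form) and Slc2a12 had at most 5 counts in a library.

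Of the inositol carriers, Slc2a13 passed edgeR's test, and the contrast between these carriers was not tested. Slc2a13 (ENSMUSG00000036298; chromosome 15, 91267696 to 91573261) had 204 and 587 counts in LISC, against 55 and 164 counts in SISC. In CPM this was 18.9 and 20.2 in LISC, against 4.002 and 5.12 in SISC, with means of 19.5 ± 0.901 CPM in LISC and 4.56 ± 0.793 CPM in SISC (SD, n = 2 each). The log2 difference was 2.09 ± 0.28 (edgeR adjusted p = 0.0431), and 2.24 and 1.98 within replicates 1 and 2. Its call was lost on TPM values (limma-trend adjusted p = 0.183 and 0.285 with pseudocounts of 1 and 0.1) and when any single library was left out: the log2 difference was then 2.14 and 2.06 without LISC replicates 1 and 2, and 1.92 and 2.26 without SISC replicates 1 and 2 (edgeR adjusted p from 0.0522 to 0.149). Slc5a3 (SMIT1), the sodium-coupled inositol carrier, was read at 14.4 and 8.49 CPM in LISC, against 20.1 and 6.94 CPM in SISC. Its groups overlapped and replicate 1 was the higher library in both (log2 −0.24 ± 0.59, edgeR adjusted p = 0.992). Slc5a3 shares exon sequence with Mrps6 on the same strand, and RSEM's posterior SD of its count was at most 0.38 counts in a library. Slc5a11 (SMIT2) had 0 counts in LISC and 3 and 18 counts in SISC, at least 2.05-fold lower in LISC against the floor of 3 counts per library, and was below the filter. That bound rests on SISC replicate 2, since SISC replicate 1 had no more counts than the floor. Of 6 genes of inositol synthesis and breakdown, 5 were tested and none passed edgeR's test, with 0 at an unadjusted p below 0.05 and 0 called by DESeq2. Isyna1, which makes inositol phosphate from glucose phosphate, was at a log2 difference of −0.21.

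Of the Slc5 genes for vitamins, iodide and choline, only Slc5a6 had enough counts to be tested, and it did not pass. Slc5a6, the carrier of biotin and pantothenate, was read at 16.6 and 12.6 CPM in LISC, against 10.3 and 9.50 CPM in SISC, with no overlap between groups and no call (log2 0.56 ± 0.28, edgeR adjusted p = 0.543). Part of its exons overlaps Atraid on the opposite strand, and no source used here gives the strand setting. Slc5a5, the iodide carrier of the thyroid, had at most 7 counts in a library, and Slc5a7, the choline carrier of cholinergic neurons, had none. Of the 23 genes tested, 15 had groups that did not overlap, or 65.2%, where 40.3% of all genes tested did. These 15 include Slc2a2, Slc2a6 and Slc16a9, which passed the filter through the group where they were high. This count too is given as a description and supports nothing.

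Within each family, the make-up of the RNA can be read from TPM. Slc16a1 made up 55.2% and 63.2% of the summed TPM of the Slc16 genes in LISC, against 32.5% and 39.9% in SISC. Slc16a11 and Slc16a13 together with Slc16a12 filled more of the SISC total, with Slc16a11 at 4.06% and 3.15% in LISC, against 10.1% and 14.7% in SISC. In the Slc5 family Slc5a8 held 16.1% and 25.3% in LISC, against 0.989% and 1.36% in SISC, while Slc5a1 held 57.5% and 54.9% in LISC, against 69.3% and 79.3% in SISC. Slc5a1 thus outnumbered Slc5a8 by 3.57-fold and 2.17-fold in LISC, against 70.0-fold and 58.2-fold in SISC. By TPM the first place among the 38 genes went to Slc16a1 in both LISC libraries and to Slc5a1 in both SISC libraries: Slc16a1 stood at 25.4 and 72.2 TPM beside Slc5a1 at 16.98 and 37.6 TPM in LISC, against 13.8 and 26.6 TPM beside 16.8 and 39.0 TPM in SISC. In the Slc2 family Slc2a1 was first in each library (37.3% and 40.2% in LISC, against 45.3% and 44.9% in SISC), and Slc2a13 held 13.4% and 14.4% in LISC, against 3.90% and 6.84% in SISC. Shares of a total move when any large component moves, and these shares were not tested. In CPM, which weighs long transcripts more, the log2 differences of each family's summed level within replicates 1 and 2 were 0.74 and 1.03 for Slc2, 0.49 and 0.46 for Slc5, and 0.72 and 0.91 for Slc16.

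**Figure D3:**
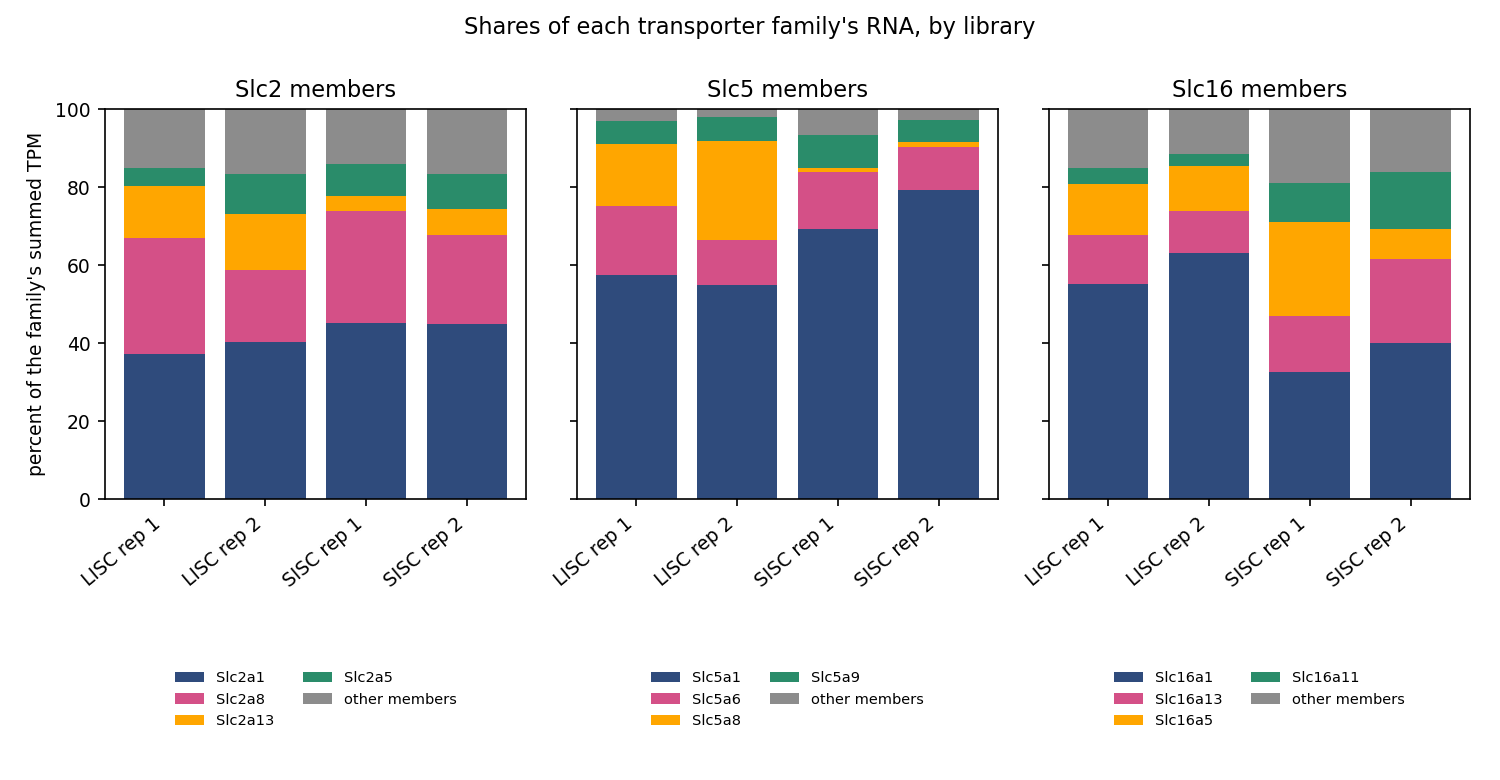
Percent of each family's summed TPM held by its 4 most abundant genes and by the rest, in the 2 LISC libraries (left) and the 2 SISC libraries. Slc5a8 takes 16.1% and 25.3% of the Slc5 total in LISC, against 0.989% and 1.36% in SISC, and Slc16a1 takes 55.2% and 63.2% of the Slc16 total in LISC, against 32.5% and 39.9% in SISC.

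Genes that use the carried sugars and acids were read from 7 lists (93 genes in the files, 83 tested), of which 1 gene rose and 3 fell in LISC in edgeR's test, while DESeq2 called 5 higher and 7 lower. Over all genes tested, edgeR called 1.45% higher and 0.741% lower, and DESeq2 called 8.35% in either direction. Besides called genes and the most abundant of each list, genes were named here after their values were seen (Hk2, Hkdc1, Pfkl, Fbp1, Sgk1 and Emb). Hk1, the hexokinase bound to mitochondria that traps glucose in the cell, was read at 65.8 and 68.6 CPM in LISC, against 4.66 and 1.53 CPM in SISC. It was 22.3-fold higher in LISC (log2 4.48 ± 0.60, edgeR adjusted p = 0.0431, and 3.82 and 5.49 within replicates 1 and 2). Its call held without each library in turn, with the size depending on SISC: the log2 difference was 5.44 without SISC replicate 1 and 3.83 without SISC replicate 2. Its relatives Hk2 (58.2 and 64.8 CPM in LISC, against 122 and 114 CPM in SISC) and Hkdc1 (10.1 and 7.18 CPM in LISC, against 18.8 and 14.2 CPM in SISC) had the opposite order without passing edgeR's test (edgeR adjusted p = 0.189 and 0.290). DESeq2 called Hk2 but not Hkdc1 (DESeq2 adjusted p = 0.02 and 0.285). By TPM the ratio of Hk1 to Hk2 was 0.775 and 0.949 in LISC, against 0.036 and 0.0137 in SISC. Of the glycolysis list, 18 of 22 genes were tested, Hk1 was the 1 called by edgeR, and the median log2 difference was 0.02. DESeq2 called 2 genes of this list higher and 2 lower. Pfkl, the liver-type phosphofructokinase, was read at 265 and 240 CPM in LISC, against 77.6 and 55.0 CPM in SISC. It did not pass edgeR's test (log2 1.93 ± 0.33, edgeR adjusted p = 0.0669), while DESeq2 called it (DESeq2 adjusted p = 6.05e-06). Gapdh, Tpi1, Gpi1 and Pkm, the highest by TPM among the glycolysis entries read, had log2 differences of 0.15, −0.08, 0.04 and 0.16, none of which passed. Aldoa was read from a single gene ID (ENSMUSG00000114515), with 11 and 12 counts in LISC, against 13 and 17 counts in SISC. The ranking, the number tested and the median of this list rest on that entry and leave out any other ID of the symbol.

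Of 15 tested genes for fructose, galactose and polyol use, 2 fell in LISC and none rose in edgeR's test, while 2 were higher and 4 lower at an unadjusted p below 0.05, and DESeq2 called 1 higher and 3 lower. The shares over all genes tested were 0.741% called lower by edgeR, 8.73% higher and 4.67% lower at an unadjusted p below 0.05, and 8.35% called by DESeq2 in either direction. Tkfc, the triokinase that passes fructose carbon on to glycolysis, was read at 22.0 and 18.6 CPM in LISC, against 73.0 and 71.8 CPM in SISC (log2 −1.84 ± 0.25, edgeR adjusted p = 0.0431). Pfkfb4, which sets the level of the glycolysis activator fructose 2,6-bisphosphate, was read at 2.13 and 3.06 CPM in LISC, against 16.7 and 14.2 CPM in SISC (log2 −2.55 ± 0.35, edgeR adjusted p = 0.0431). Both calls were lost when any single library was left out, with log2 differences of −1.96 to −1.71 for Tkfc and −2.84 to −2.33 for Pfkfb4, and on TPM values. Khk, the fructokinase, had lower values in LISC, at 15.4 and 18.2 CPM in LISC, against 37.9 and 55.7 CPM in SISC. It did not pass edgeR's test (log2 −1.48 ± 0.29, edgeR adjusted p = 0.0945), while DESeq2 called it (DESeq2 adjusted p = 0.00233). Sord and Akr1b3, which pass glucose to fructose by way of sorbitol and are among the genes of this list highest by TPM, were at log2 differences of 1.25 and 0.73 (edgeR adjusted p = 0.277 and 0.467). The fructose carrier gene Slc2a5 had overlapping groups, as given above.

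None of 7 tested genes of gluconeogenesis and glucose release passed edgeR's test. At an unadjusted p below 0.05, 1 was lower, as DESeq2 also called it: Fbp1, fructose bisphosphatase, was read at 8.06 and 9.11 CPM in LISC, against 22.9 and 33.8 CPM in SISC (edgeR adjusted p = 0.0753). Over all genes tested, 4.67% were lower at an unadjusted p below 0.05, and DESeq2 called 8.35% in either direction. In the list of lactate, pyruvate and ketone use, none of 20 tested genes passed edgeR's test, while 3 had an unadjusted p below 0.05, all higher in LISC, where 8.73% of all genes tested were, and DESeq2 called 1, where it called 8.35% of all genes in either direction. Ldha, the main lactate dehydrogenase gene, differed by −0.12 and Bdh1, which turns acetoacetate into hydroxybutyrate, by 0.17 on the log2 scale. None of 14 tested partner and regulator genes passed edgeR's test, while 1 was called by DESeq2 and had an unadjusted p below 0.05: Sgk1, a kinase that raises sodium-coupled transport, was higher in LISC (log2 1.49 ± 0.35, edgeR adjusted p = 0.137). This 1 of 14 stands beside the same shares over all genes, 8.73% higher at an unadjusted p below 0.05 and 8.35% called by DESeq2. The sodium pump gene Atp1b1 was at a log2 difference of 0.27. Txnip, which lowers glucose uptake by GLUT1, was at −0.41 (edgeR adjusted p = 0.826).

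Of 4 disaccharidase genes, which free glucose, galactose and fructose at the brush border, Sis (sucrase-isomaltase) fell, at 0.834 and 0.997 CPM in LISC, against 40.2 and 13.7 CPM in SISC (log2 −4.84 ± 0.66, edgeR adjusted p = 0.0431). All 4 were tested, 3 were lower at an unadjusted p below 0.05, and DESeq2 called 1 lower. Over all genes tested, edgeR called 0.741% lower, 4.67% were lower at an unadjusted p below 0.05, and DESeq2 called 8.35% in either direction. Sis is also 1 of the 12 enterocyte markers, and it differed widely between the SISC libraries: its log2 difference was −3.89 without SISC replicate 1 and −5.45 without SISC replicate 2, both past the threshold. Lct (lactase) and Treh (trehalase) stood the same way at under 4 CPM in each library (edgeR adjusted p = 0.286 and 0.348). Mgam (maltase-glucoamylase) stood at 50.4 and 134 TPM in LISC, against 80.9 and 156 TPM in SISC, and did not pass (log2 −0.58, edgeR adjusted p = 0.870).

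**Figure D4:**
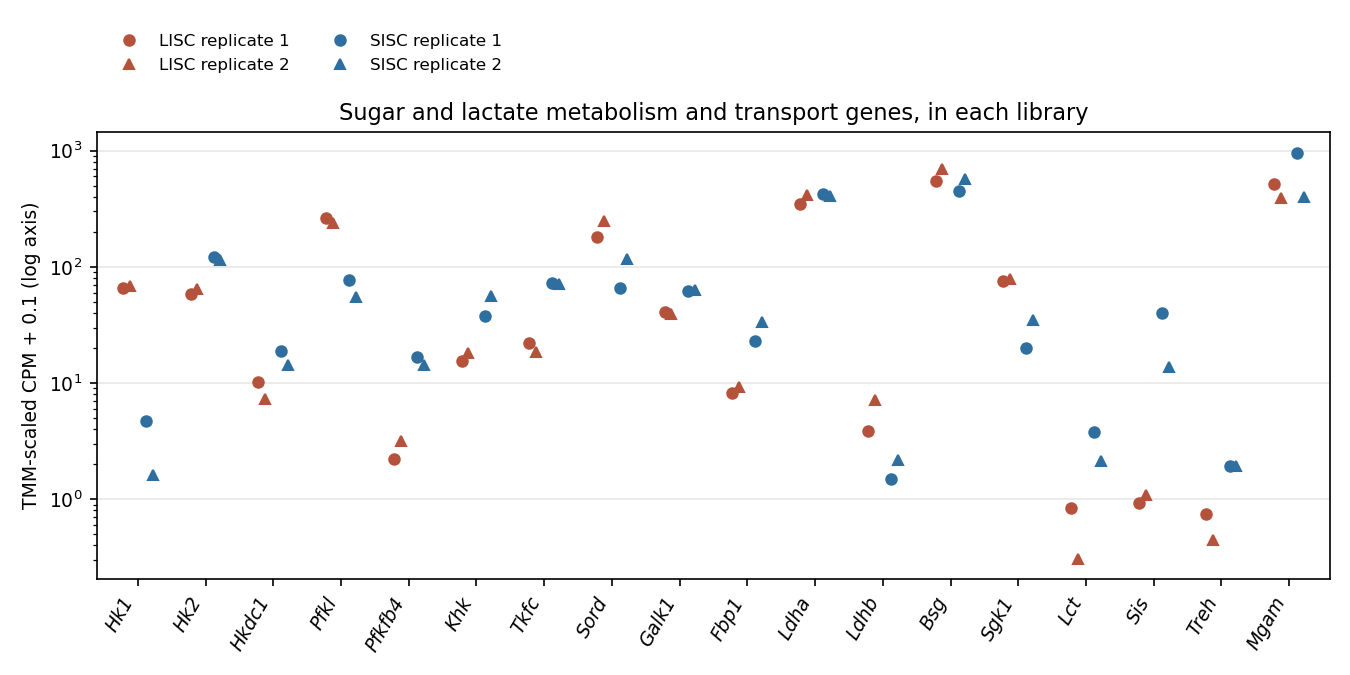
TMM-scaled CPM plus 0.1, on a log axis, of 18 genes of sugar and lactate metabolism and transport in the 2 LISC libraries (red, left of each pair) and the 2 SISC libraries (blue). Hk1, at 65.8 and 68.6 CPM in LISC against 4.66 and 1.53 CPM in SISC, and Sis show the widest gaps between groups, in opposite directions.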

How the data were processed

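RNA selected by its poly(A) tail was made into strand-marking libraries, per the labels' protocols. The submitters' processing notes name STAR 2.7.2b, RSEM 1.2.31 and GRCm38 (mm10). The sources used here give no annotation release, strand setting or trimming. The authors deposited gene-level expected counts, which need not be whole (7.25% of genes were more than 0.001 from a whole number in some library), and TPM values. The deposited gene lengths and effective lengths, and RSEM's posterior SD, are values of another kind and served only for description. Of 55487 gene IDs, 55227 had a symbol in GENCODE vM21, from which coordinates (1-based) were taken.

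Expected counts were rounded and tested with edgeR 4.0.16 (R 4.3.3): TMM scaling, a minimum count of 10 in the low-count filter, quasi-likelihood test, Benjamini-Hochberg adjustment over 14165 genes and a threshold of 0.05. The SE is approximate, the log2 difference divided by the root of F. Groups and replicate numbers came from sample titles, and 2 libraries per group limit the precision. A count of 0 allows up to 3 counts, or 0.0937 to 0.278 CPM with TMM scaling, and intervals (exact, 95%) and floors cover counting error only. Replicates differed by more than sampling noise (chi-square over its degrees of freedom, 833 in LISC and 892 in SISC), so that none was a copy. Alternatives were DESeq2 1.42.0, its size factors in edgeR, no filter, a minimum count of 50, limma-trend 3.58.1 on log2(TPM + 1) and log2(TPM + 0.1), no rRNA genes, a replicate block and leaving out each library.

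The genes and lists were chosen with earlier results of these data known. Named with all values were genes with an adjusted or unadjusted p below 0.05, genes with a mean TPM of at least 5 in a group, and the main sugar and monocarboxylate carriers; in each pathway list, the called genes and up to 4 of the highest mean TPM. Some genes of the family and of the lists are counted but not reported by name here. For list and marker genes a single gene ID was read for each symbol, so another ID of the same symbol is not counted. Promoter windows are from RefSeq (GRCm38.p6), with 28 of the 38 genes matched.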

Additional observations from a re-analysis of the deposited data

How the results depend on the processing

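With 2 libraries per group and a common biological coefficient of variation of 43.4%, small differences are not detectable here, and genes near 3 counts per library cannot be ranked. Over 272 pairs of a transporter gene and an alternative, 242 kept their direction and side of the threshold, 10 passed newly, 6 no longer passed, all of them Slc2a13, and 14 changed sign, none of these past the threshold. The calls of Slc5a8 and Slc16a9 held under all 12 alternatives. The cause of the changes below was not tested.

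The median log2 difference of the transporter genes was 0.28 with no filter, 0.29 on log2(TPM + 1), 0.32 on log2(TPM + 0.1), and 0.32 to 0.68 without 1 library. Transporter genes called higher in LISC numbered 5 with DESeq2 and with no filter, and 2 to 3 without 1 library; those called lower numbered 1 with DESeq2 and with no filter, and 0 without 1 library. Over all genes, 785 (DESeq2), 942 (no filter), 353 (log2(TPM + 1)) and 372 (log2(TPM + 0.1)) were higher, and 166 to 338 without 1 library; 398, 465, 172 and 179 were lower under the same 4, and 79 to 149 without 1 library. Pathway list genes higher numbered 5 with DESeq2 and with no filter, and 1 without any 1 library. Those lower numbered 7 with DESeq2, 5 with no filter, 1 on either TPM scale, and 1 to 2 without 1 library.

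Replicate numbers are shared by only 2 pairs and the labels do not tie them to animals. Deviations of same-numbered libraries from their group means correlated at 0.648. With a replicate block, 1015 genes were higher and 524 lower over all genes, 5 transporter genes were higher and 1 lower (Slc16a1, Slc16a7 and Slc16a12 were added), and 9 list genes were higher and 11 lower.

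Signs that changed were as follows. Without 1 library, Slc16a3 ranged from −1.07 to 0.79, Slc16a5 from −0.30 to 1.15, Slc2a5 from −0.27 to 0.23, Slc5a1 from −0.24 to 0.23 and Slc5a3 from −0.84 to 0.70. Slc2a5 was at 0.32 and 0.40 on the TPM scales and 0.0058 with the replicate block. Slc5a1 was at 0.0053 with a minimum count of 50 and 0.0057 with the replicate block.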

Other observations

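The deposited gene length, an average over isoforms weighted by their estimated abundance, differed between libraries for some transporter genes. For Slc16a12 it was 4051 and 1393 bases in LISC, against 2161 and 2266 bases in SISC. For Slc16a7 it was 5710 and 3366 bases in LISC, against 3082 and 2798 bases in SISC. Counts of these genes were low, and the differences in length were not tested.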
